A study of Mus musculus with 4 samples.

Results

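The genes described are 10 members of the Krüppel-like factor (KLF) family, Klf2, Klf3, Klf4, Klf6, Klf7, Klf9, Klf10, Klf11, Klf13 and Klf16, taken by gene symbol from the 16051 genes of the expression table. The cells were 3T3-L1, a mouse embryonic fibroblast line of NIH SWISS origin that is used as a preadipocyte model, differentiated with a mix of isobutyl-methylxanthine, dexamethasone and insulin. Control cells received the solvent DMSO, although the sample labels call them untreated, and treated cells received 100 μM risperidone, an antipsychotic drug, for 48 h. Each treatment (RNC for the control, RIS for risperidone) had 2 libraries, each made from RNA pooled from 3 cultures, so p-values below measure the spread between pools and not between single cultures. The labels also give embryo as the tissue and an extraction from retina, which the methods of the study do not mention. Defining adipocyte transcripts such as Adipoq were nearly absent from all 4 libraries. Risperidone replicate 2 stood apart by its kidney tubule transcripts, so changes of KLF genes are also given without it.

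KLF proteins are transcription factors that bind GC-rich and CACCC-containing DNA through zinc fingers near their C-terminal end, as do the related Sp proteins. Members differ in the N-terminal part, through which some recruit co-repressors (CtBP or SIN3A) and others co-activators. In fat cell formation, several KLFs are known to act before or beside PPARγ and the C/EBP factors, some in favour of differentiation and some against it.

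Of the 10 KLF genes, 7 were higher with risperidone and 2 were lower. Klf9, Klf10, Klf11, Klf6, Klf7, Klf13 and Klf16 rose by 1.31- to 1.63-fold, and Klf2 and Klf3 fell by 44.8% and 30.0% on normalised counts. Klf4 overlapped between treatments and did not pass the test. Risperidone moved a large part of the transcriptome, with 32.1% of the 10243 genes tested called higher and 32.2% called lower (edgeR's quasi-likelihood F-test with Benjamini-Hochberg adjustment, threshold 0.05). FPKM values did not overlap between treatments for 9 of the 10 KLF genes and for 82.2% of all genes tested. The median log2 fold change was 0.54 over the 10 KLF genes and 0.00 over all genes tested, and no KLF gene of the 10 reached an absolute log2 fold change of 1, which 672 of all genes tested did. In bulk RNA, fewer cells of a type and less RNA per cell cannot be told apart, which applies to each value here.

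Promoter sequence (RefSeq, build GRCm38.p6) was matched for 8 of the 10 genes as the 250 bases before the start given in the table. For Klf7 this window lies inside the span of the gene. Sequence is shown for the 2 genes that fell and for Klf9 and Klf11, with the boxes that KLF and Sp proteins bind. Klf9 and Klf11 rose most in the edgeR fit reported here. Klf6 exceeded Klf9 with length offsets (0.75 against 0.73) and with quantile normalization (0.67 against 0.61). Capitals mark the CACCC box (CACCC, or GGGTG on the other strand) and the GC box (GGGCGG, or CCGCCC on the other strand), and runs of capitals can hold adjoining or overlapping boxes. Each is written 5′ to 3′ along the gene, and all lie on the plus strand, at chr8:72318812-72319061, chr5:64803271-64803520, chr19:23140976-23141225 and chr12:24651121-24651370 in the order shown.
Klf2: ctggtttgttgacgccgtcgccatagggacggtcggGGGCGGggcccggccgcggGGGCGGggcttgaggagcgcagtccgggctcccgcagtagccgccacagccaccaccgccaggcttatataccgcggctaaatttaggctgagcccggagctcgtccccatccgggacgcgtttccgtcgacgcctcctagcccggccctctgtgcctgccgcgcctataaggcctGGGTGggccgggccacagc
Klf3: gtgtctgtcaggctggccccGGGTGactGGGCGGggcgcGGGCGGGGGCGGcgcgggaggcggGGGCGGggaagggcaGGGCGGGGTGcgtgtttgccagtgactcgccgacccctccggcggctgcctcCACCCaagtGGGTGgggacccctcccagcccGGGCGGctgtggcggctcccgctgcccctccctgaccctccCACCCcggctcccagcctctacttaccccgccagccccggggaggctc
Klf9: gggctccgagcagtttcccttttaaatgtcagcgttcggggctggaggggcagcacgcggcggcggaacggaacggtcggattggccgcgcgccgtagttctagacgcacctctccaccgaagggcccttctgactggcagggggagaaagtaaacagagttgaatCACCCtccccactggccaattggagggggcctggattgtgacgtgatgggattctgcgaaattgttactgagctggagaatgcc
Klf11: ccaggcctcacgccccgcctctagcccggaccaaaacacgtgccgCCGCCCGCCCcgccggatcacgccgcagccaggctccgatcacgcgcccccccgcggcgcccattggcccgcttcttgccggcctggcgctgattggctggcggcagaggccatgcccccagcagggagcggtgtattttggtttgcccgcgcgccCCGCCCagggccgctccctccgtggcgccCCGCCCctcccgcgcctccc
The Klf3 window held 5 CACCC boxes and 6 GC boxes, and the Klf2 window 1 and 2. Klf9 held 1 CACCC box and no GC box, and Klf11 had 4 GC boxes and no CACCC box. Among the 8 promoters, 5 held a CACCC box, against 51.3% of 27025 mouse promoters of this length and 56.5% of the 8329 that belong to genes tested. A GC box was found in 7 of the 8, against 32.9% and 61.9%. The CCAAT box (CCAAT or ATTGG) was in 4 of the 8, against 34.5% and 37.6%, and neither TATAAA (or TTTATA) nor the cAMP response element TGACGTCA was in any of them. Guanine and cytosine made up 71.2% of the Klf2 window, 78.4% of Klf3, 59.6% of Klf9 and 76.8% of Klf11, against a median of 60.4% for the promoters of genes tested. Klf2 and Klf3 thus held both kinds of box, and Klf9 and Klf11 each held 1 kind, but Klf13, which also rose, held both, as did the Klf7 window inside its gene. A match describes letters only.

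The KLF genes covered a wide range of levels. Levels are given as FPKM (fragments per kilobase of transcript, scaled to the depth of the library), a per-length unit that can be set beside that of another gene. In the DMSO libraries Klf9 was the most abundant at 33.9 ± 1.33 FPKM (SD, n = 2), followed by Klf10, Klf3, Klf13, Klf6, Klf11, Klf16, Klf2, Klf7 and Klf4, and no neighbours in this order overlapped. With risperidone Klf9 and Klf10 stayed first and second, Klf13 passed Klf3, and Klf7 passed Klf2. Klf3 and Klf6 then overlapped, as did Klf6 and Klf11. The plot of levels by library shows the same order.

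**Figure D1:**
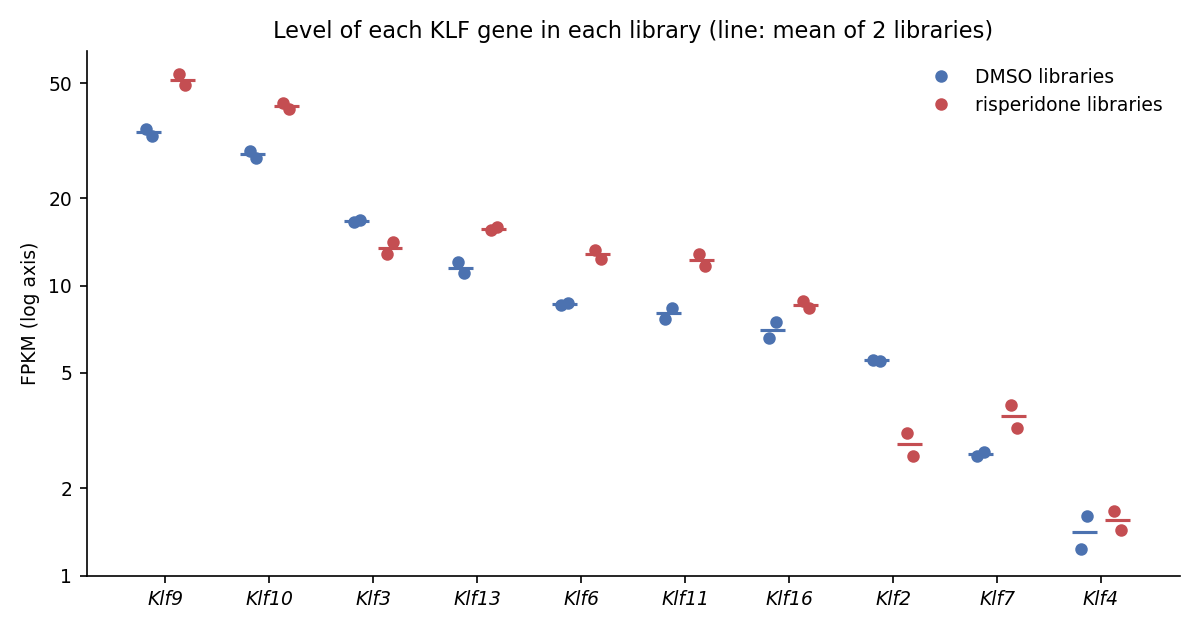
FPKM of the 10 KLF genes in each library (log axis), with 2 DMSO and 2 risperidone libraries per gene as points. The risperidone points lie above the DMSO points for 7 genes and below them for Klf2 and Klf3, and the points mix for Klf4.

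Klf9 is a transcription factor gene that glucocorticoid and thyroid hormone induce in many tissues and that promotes the middle stage of adipogenesis. Its level was 34.83 and 32.95 FPKM with DMSO and 53.53 and 49.23 with risperidone, from 1784, 1638, 2726 and 2467 counts. Both risperidone libraries lay above both controls. The log2 fold change was 0.70 (SE 0.0568, edgeR adjusted p = 1.78e-06), larger in size than that of 84.0% of genes tested. Klf9 lies at chr19:23141226-23168129 on the plus strand.

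Klf10 and Klf11, once named TGF-beta-inducible early genes, encode repressors that bind SIN3A. Klf10 (chr15:38291464-38300711, minus strand) was at 29.26 and 27.48 FPKM with DMSO and at 42.55 and 40.71 with risperidone. Klf11 (chr12:24651371-24662782, plus strand) was at 7.67 and 8.38 FPKM with DMSO and at 12.87 and 11.66 with risperidone. Neither gene overlapped between treatments. The log2 fold change was 0.65 (SE 0.0540, edgeR adjusted p = 1.96e-06) for Klf10 and 0.71 (SE 0.0705, edgeR adjusted p = 7.88e-06) for Klf11. These folds were close to that of Klf9, and their order changed with the library left out. Counts of Klf10 over those of Klf11 within a library were 2.91 and 2.51 with DMSO and 2.53 and 2.68 with risperidone. These ratios overlapped between treatments.

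Klf13 and Klf16 belong with Klf9, Klf10 and Klf11 to the SIN3A-binding branch of the family. Klf13 (chr7:63886351-63938915, minus strand), known for its part in chemokine gene activation in T cells, was at 12.06 and 11.05 FPKM with DMSO and at 15.51 and 15.89 with risperidone. Klf16 (chr10:80567121-80577296, minus strand), first described as a regulator of dopamine receptor genes, was at 6.60 and 7.47 FPKM with DMSO and at 8.86 and 8.35 with risperidone. Both risperidone libraries were the higher ones for each gene. The log2 fold change was 0.54 (SE 0.0604, edgeR adjusted p = 1.91e-05) for Klf13 and 0.39 (SE 0.0937, edgeR adjusted p = 0.00390) for Klf16. Without control replicate 1, the lower Klf16 control, the Klf16 log2 fold change was 0.30 and the edgeR adjusted p 0.0746, so its call rested on that library. Counts of Klf13 over Klf16 were 4.54 and 3.68 with DMSO and 4.35 and 4.72 with risperidone, and overlapped.

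Klf6 and Klf7 are counted among the activators of the family. Klf6 represses the preadipocyte gene Dlk1 and promotes adipogenesis, whereas Klf7 opposes it when overexpressed. Klf6 (chr13:5861489-5870393, plus strand) was at 8.60 and 8.71 FPKM with DMSO and at 13.32 and 12.39 with risperidone. Klf7 (chr1:64029448-64122345, minus strand) was lower throughout, at 2.59 and 2.67 FPKM with DMSO and 3.89 and 3.23 with risperidone. Both genes were higher in each risperidone library than in either control. Dlk1 itself was also higher, at 30.38 and 32.85 FPKM with DMSO and 81.70 and 83.28 with risperidone (log2 fold change 1.52, SE 0.0544). The log2 fold change was 0.67 (SE 0.0643, edgeR adjusted p = 6.34e-06) for Klf6 and 0.54 (SE 0.102, edgeR adjusted p = 0.000747) for Klf7. The Klf7 change rested on 250 and 238 counts with DMSO and 358 and 309 with risperidone.

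Klf2 and Klf4, also counted as activators, are best known from blood vessel endothelium and from stem cells. Klf2 also holds preadipocytes undifferentiated by repressing Pparg, and Klf4 acts early in adipogenesis on Cebpb. Klf2 (chr8:72319062-72321654, plus strand) was at 5.56 and 5.50 FPKM with DMSO and at 3.10 and 2.59 with risperidone, from 153, 147, 85 and 70 counts. Both risperidone libraries were below both controls. The log2 fold change of Klf2 was -0.86 (SE 0.163, edgeR adjusted p = 0.000822), larger in size than that of 90.0% of genes tested. Its rank among the 10 KLF genes depended on the fit. Without risperidone replicate 2 it was -0.73, against 0.79 for Klf11 and 0.76 for Klf9, and with quantile normalization -0.59, against 0.70 for Klf11. Klf4 (chr4:55527137-55532475, minus strand) was at 1.24 and 1.60 FPKM with DMSO and at 1.67 and 1.44 with risperidone, from 59, 74, 79 and 67 counts. The treatments overlapped, and the log2 fold change of 0.23 (SE 0.208, edgeR adjusted p = 0.357) did not pass the test. With 1 library left out it ranged from 0.05 to 0.42. Its sign turned to -0.01 on the log2(TPM + 1) scale, also without a call. Counts of Klf2 over those of Klf4 were 2.59 and 1.99 with DMSO and 1.08 and 1.04 with risperidone, with no overlap.

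Klf3 encodes a repressor that binds CtBP and blocks adipogenesis when forced. The gene (chr5:64803521-64832901, plus strand) was at 16.56 and 16.85 FPKM with DMSO and at 12.87 and 14.20 with risperidone. Its estimated counts were 1031 and 999.9 with DMSO and 640.0 and 692 with risperidone. Both scales put the risperidone libraries below the controls. On counts the log2 fold change was -0.51 (SE 0.0673, edgeR adjusted p = 5.75e-05), whereas the log2 ratio of mean FPKM was -0.30.

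Both the scaling between libraries and the transcript length differ between these values. With library size alone the log2 fold change on counts was -0.61. Solving FPKM for length, with the library's total count as its depth, gave 3802 and 3736 bases for Klf3 with DMSO and 3056 and 3050 with risperidone. The implied length was therefore 0.810 of the control value. A shift of that size or larger occurred in 0.527% of 10242 genes. For the other 9 KLF genes the ratio of implied lengths was farthest from 1 in Klf7, at 1.01, where single libraries ran from 5612 to 5987 bases and the treatments overlapped. RSEM-type estimates weight a gene's length by its isoforms, and GENCODE M21, which may not be the annotation used, lists 9 Klf3 transcripts, of which the 4 protein-coding ones run from 590 to 5221 bases. The predicted gene Gm38457 overlaps Klf3 (chr5:64802370-64809180), and its estimated counts were 33.1 and 31.1 with DMSO and 5.01 and 7 with risperidone, below the filter for testing. The part of isoform or read assignment in the Klf3 change was not tested. With quantile-normalized log2(FPKM + 1) in limma, the Klf3 difference was -0.17 and the adjusted p 0.0516.

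**Figure D2:**
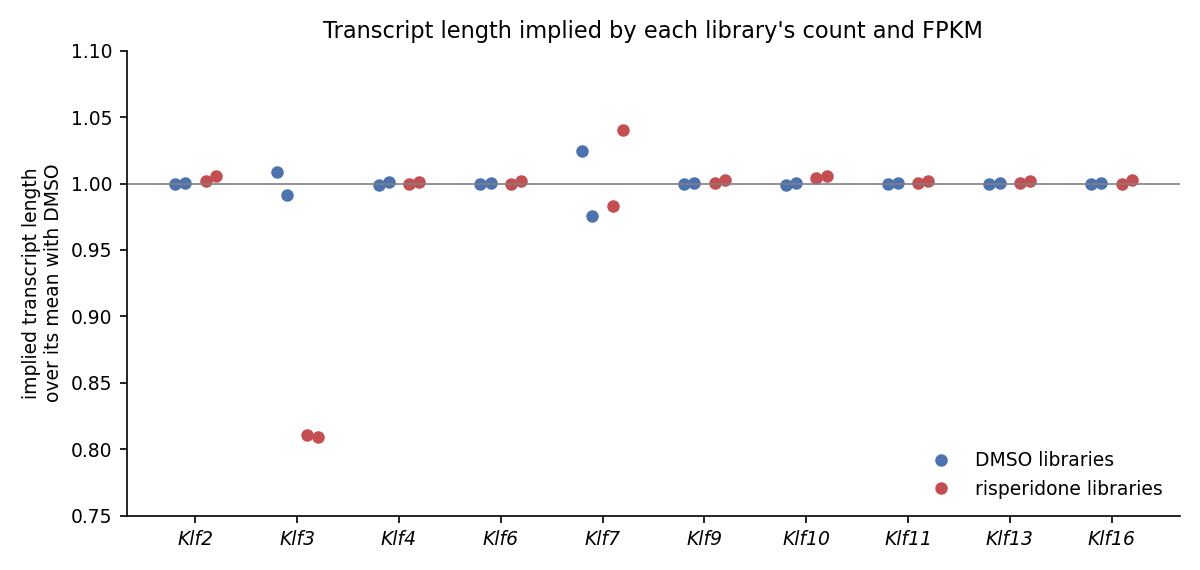
Implied transcript length of each KLF gene in each library, divided by its mean in the 2 DMSO libraries. Klf3 lies at 0.810 of the control mean in the risperidone libraries, and the mean ratio of the other 9 genes is farthest from 1 for Klf7, at 1.01.

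The composition of the family shifted with these changes. Summed over the 16 KLF genes in the table, TPM (a per-length share of all transcripts, scaled to the same total in each library) was 264 and 257 with DMSO and 315 and 312 with risperidone. The share of Klf3 in that sum was 13.2% ± 0.305 with DMSO and 8.07% ± 0.830 with risperidone (SD, n = 2). The share of Klf2 was 4.38% ± 0.0143 and 1.69% ± 0.158. Klf9 made up 26.8% and then 30.6%, and Klf10 22.4% and then 24.8%. The shares of Klf13 (9.14% and 9.35%) and Klf7 (2.08% and 2.11%) moved little. Within a library, counts of Klf9 over Klf3 were 1.73 and 1.64 with DMSO and 4.26 and 3.57 with risperidone, and counts of Klf6 over Klf2 were 3.76 and 3.84, then 10.4 and 11.6. These ratios do not depend on the scaling between libraries, and neither overlapped between treatments. Counts are not corrected for length, so the ratio of Klf9 over Klf3 includes the shift in implied Klf3 length (0.810 of the control value).

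**Figure D3:**
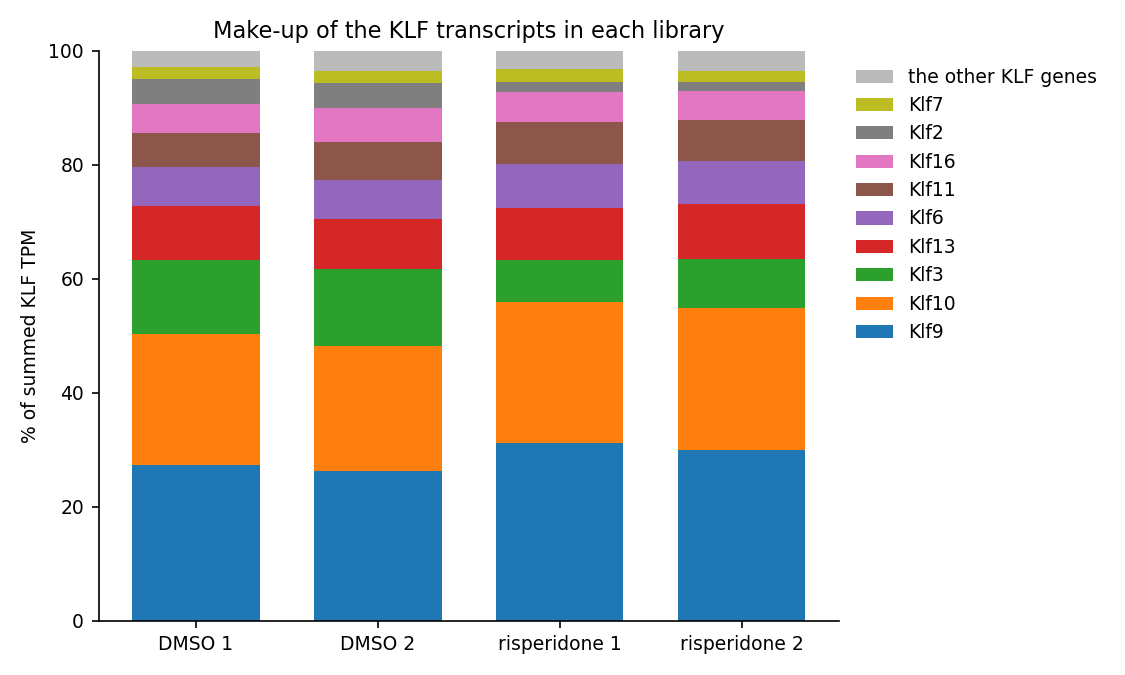
Share (percent) of KLF genes in the summed TPM of the 16 KLF genes, with a stacked bar for each of the 4 libraries, in which 9 genes have a segment each and the remaining 7, Klf4 included, share the grey one. The segments of Klf2 and Klf3 are narrower in both risperidone bars, and those of Klf9 and Klf10 are wider.

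Scaling between libraries bears on the size of the rises. With TMM factors, 49.9% of the genes called were higher, against 37.9% with library size alone, 37.8% with limma on log2(FPKM + 1) and 22.5% with limma on log2(TPM + 1), where the median of all genes tested lay at -0.22. On that TPM scale 5 KLF genes were called higher and 2 lower, beside 15.0% and 51.7% of all genes tested, and the differences of Klf7 (0.25, limma adjusted p = 0.106) and Klf16 (0.14, limma adjusted p = 0.194) did not pass. Relative to the TPM median, all 7 genes that rose were positive, from 0.36 for Klf16 to 0.67 for Klf9 and Klf11, and Klf2 was at -0.76 and Klf3 at -0.21. The same directions held for these 9 genes under every alternative in which they were tested.

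**Figure D4:**
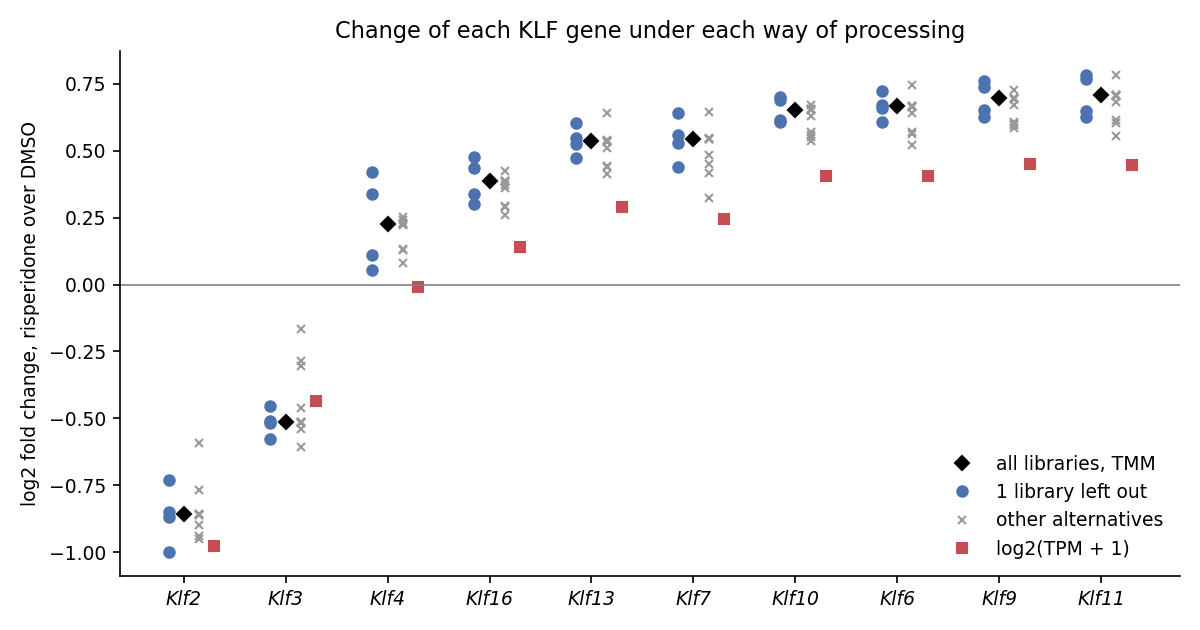
Log2 fold change of each of the 10 KLF genes under each processing alternative, with diamonds for the reported value, circles for 1 library left out, squares for log2(TPM + 1) and crosses for the other alternatives. The values of Klf2 and Klf3 stay below 0 and those of 7 genes above 0, whereas Klf4 spans 0.

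Of the other 7 KLF genes of the mouse that were looked up, 6 were in the table and 2 passed the filter. Klf15, which glucocorticoid induces and which promotes adipogenesis, was at 0.72 and 0.91 FPKM with DMSO and at 1.96 and 2.03 with risperidone, from 26, 33, 72 and 75 counts. Its log2 fold change was 1.41 (SE 0.232, edgeR adjusted p = 0.000306), with no overlap. Both DMSO values lay under the filter of 1 FPKM, so Klf15 passed it only through its risperidone level. Without the filter the log2 fold change was 1.40 (edgeR adjusted p = 0.0048). Klf5, an activator of Pparg, was at 1.07 and 1.30 FPKM with DMSO and at 1.62 and 1.80 with risperidone. The log2 fold change of 0.62 (SE 0.252) for Klf5 had an edgeR adjusted p of 0.0502, just outside the threshold. Klf12 overlapped at 0.36 to 0.58 FPKM and was not tested, and Klf1, Klf8 and Klf14 had at most 1 count in any library.

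The Sp genes, the nearest relatives of the family, had 2 of 4 tested higher and 2 lower, beside 32.1% and 32.2% of all genes tested (1 and 2 on the TPM scale, beside 15.0% and 51.7%). Sp1, a widely expressed activator, was at 12.88 and 12.80 FPKM with DMSO and at 16.84 and 16.76 with risperidone. Its log2 fold change was 0.48 (SE 0.0466, edgeR adjusted p = 6.34e-06). Sp2 changed by 0.57 (SE 0.189, edgeR adjusted p = 0.0218), Sp4 by -0.38 (SE 0.0781, edgeR adjusted p = 0.00150) and Sp3 by -0.15 (SE 0.0472, edgeR adjusted p = 0.0145). The Sp2 call was lost without control replicate 2 (0.42, edgeR adjusted p = 0.156) and without risperidone replicate 1 (0.37, edgeR adjusted p = 0.128), and also with DESeq2, with limma on log2(FPKM + 1), log2(FPKM + 0.1) or log2(TPM + 1) and without the filter. The Sp3 call was lost without control replicate 1 (-0.16, edgeR adjusted p = 0.124) or control replicate 2 (-0.15, edgeR adjusted p = 0.175), with DESeq2 and with length offsets, and that of Sp4 with quantile normalization. Counts of Sp1 over Sp3 were 0.776 and 0.760 with DMSO and 1.22 and 1.17 with risperidone. The plot of changes sets these beside the KLF genes.

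**Figure D5:**
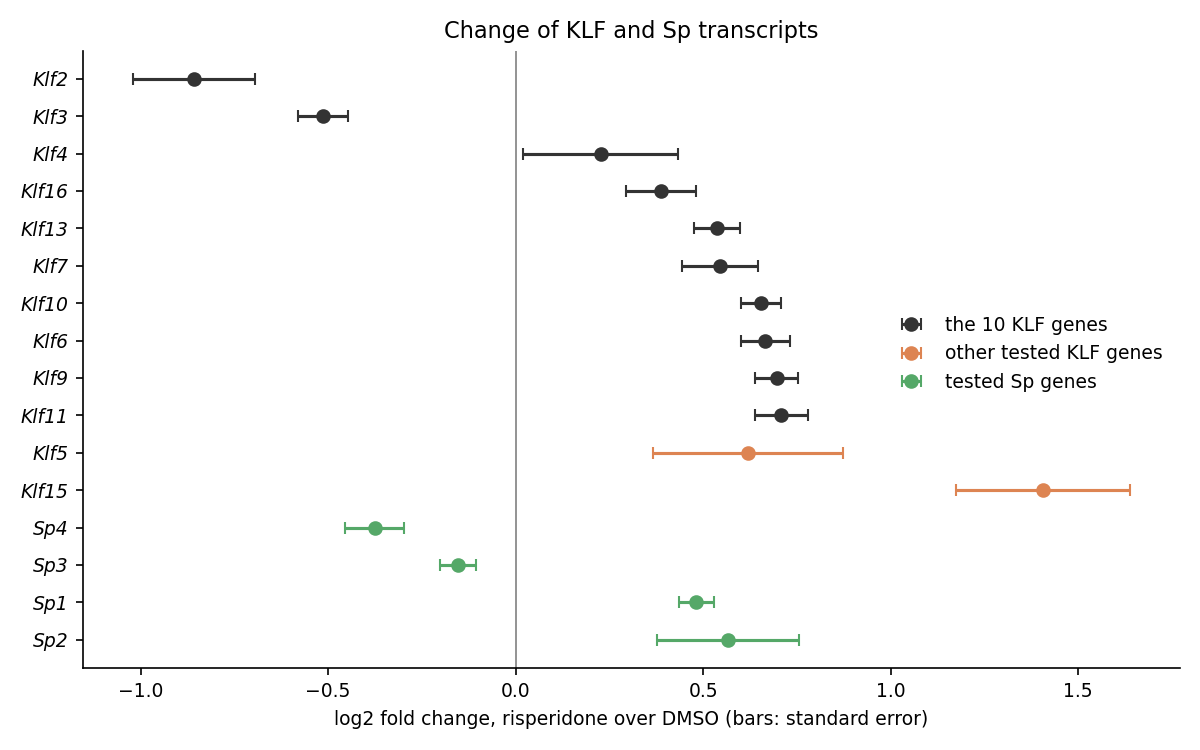
Log2 fold change, risperidone over DMSO, of the 10 KLF genes, the 2 other KLF genes tested and the 4 Sp genes tested (bars: SE of the edgeR fit). Klf2, Klf3, Sp3 and Sp4 lie below 0, and Klf15 lies farthest above it.

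Partners of KLF proteins were mostly lower. Of 13 cofactor genes listed, all were tested, 2 were higher and 9 lower, with a median log2 fold change of -0.35, beside 32.1% higher and 32.2% lower among all genes tested. Hdac1, a histone deacetylase of the SIN3A complex, was at 47.11 and 48.03 FPKM with DMSO and at 17.79 and 19.44 with risperidone (log2 fold change -1.26, SE 0.0676). Both risperidone libraries were far below both controls. Fbxw7, a ubiquitin ligase subunit that marks several KLFs for degradation, changed by -0.69, and the acetyltransferase Crebbp by -0.67. The KLF3 partner genes moved apart, with Ctbp1 at -0.23 and Ctbp2 at 0.34, and the other gene that rose was the ubiquitin ligase gene Wwp1 at 0.33. On the TPM scale, where 51.7% of all genes tested were called lower, no cofactor was called higher and 10 were called lower.

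Pathways known to act on KLF genes were mixed. Their counts stand beside 32.1% higher and 32.2% lower among all genes tested, and 15.0% and 51.7% on the TPM scale. Of the 12 TGF-beta and SMAD genes tested, 7 were higher and 2 lower (median 0.27, and 4 and 2 on the TPM scale). Tgfb2, a ligand, changed by 1.78, and Tgfbr2, a receptor, by -0.61. Of 6 glucocorticoid receptor and target genes tested, 3 were higher and 3 lower (1 and 3 on the TPM scale). The receptor gene Nr3c1 changed by -0.42 and the kinase gene Sgk1 by 0.63, while the phosphatase gene Dusp1 went from 32.18 and 32.58 FPKM to 4.55 and 5.96 (log2 fold change -2.53, SE 0.0902). No single direction held across the glucocorticoid list. In the MEK5-ERK5-MEF2 axis, which drives Klf2 and Klf4 in endothelium, 3 of 7 tested were higher and 1 lower (2 and 4 on the TPM scale). Mef2d changed by 0.57 and Mapk7, which encodes ERK5, by -0.16 (edgeR adjusted p = 0.0361). The Mapk7 call was lost when any 1 library was left out (edgeR adjusted p = 0.0621 to 0.179), with the replicate block (edgeR adjusted p = 0.0722) and with DESeq2 (adjusted p = 0.283). Mef2b changed by 1.34, but its counts were low and not whole, at 25.7 and 44.5 with DMSO and 86.3 and 80.7 with risperidone.

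Of the 13 adipogenic transcription factor genes listed, 7 were tested, with 1 higher and 4 lower, beside 32.1% and 32.2% of all genes tested. Ebf1 changed by 0.54, Stat5a by -0.48, Stat5b by -0.48, Srebf1 by -0.36 and Cebpd by -0.27. Stat5a and Stat5b are close copies whose counts were not whole, so reads shared by them could have been divided between the genes. Pparg, the factor at the centre of adipogenesis, differed by 0.12 (edgeR adjusted p = 0.194), and Cebpb by -0.20 (edgeR adjusted p = 0.110), and neither passed the test. With quantile normalization Pparg was called higher (0.21, limma adjusted p = 0.0261). Cebpb was called lower there, and also with the replicate block, library size only and length offsets. FPKM of Cebpb did not overlap, at 101.32 and 103.06 with DMSO and at 95.27 and 70.97 with risperidone. Cebpa had at most 5 counts in a library. On the TPM scale none of the 7 was called higher and 5 were called lower, beside 15.0% and 51.7% of all genes tested.

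Markers of the labelled cell type were uneven. Of 12 adipocyte genes, 5 (Adipoq, Cidec, Lep, Retn and Slc2a4) had at most 3 counts in each library, and the summed TPM of the list was 784 and 887 with DMSO and 486 and 527 with risperidone. Most of the sum came from the lipase gene Lpl (485 and 514, then 352 and 363 TPM) and the lipid-binding protein gene Fabp4, and Pparg had 345 to 388 counts. The list's sum was thus lower in both risperidone libraries, in which Fabp4 had 492 and 586 counts against 1079 and 1360. All 9 preadipocyte and fibroblast markers were detected, at a summed 4796 to 4973 TPM with DMSO and 4586 to 4853 with risperidone, but single members moved in both directions, with 4 of 9 higher and 3 lower, beside 32.1% and 32.2% of all genes tested. Thy1 changed by 1.05 and Col1a1 by 0.99 beside Dlk1, and Col3a1 by -0.96 and Pdgfrb by -0.50. Of the others called, Ly6a (1.20, from 26 and 24, then 34 and 74 counts) was at 0.53 and no longer called without risperidone replicate 2 (edgeR adjusted p = 0.182). The call of Col1a2 (-0.16) was lost without control replicate 1 (-0.13, edgeR adjusted p = 0.216) or control replicate 2 (-0.18, edgeR adjusted p = 0.0612). The 12 kidney tubule genes summed to 375 TPM in risperidone replicate 2 and to 4.04 to 5.94 in the other 3 libraries. Macrophage markers summed to 5.94 and 8.42 TPM with DMSO and to 12.3 and 13.5 with risperidone, nearly all of it from Cd68 (5.46 and 7.19, then 11.6 and 12.8 TPM), while Lyz2, Csf1r and Ptprc had at most 8 counts. Endothelial markers, for a cell type rich in Klf2, summed to 0.37 and 0.40 TPM with DMSO. They summed to 0.30 TPM in risperidone replicate 1 and to 1.16 in risperidone replicate 2. The 5 retina genes in the table stayed at 1.29 to 2.11 TPM. Without risperidone replicate 2, the log2 fold change was -0.73 for Klf2 and -0.58 for Klf3. The 7 KLF genes that rose then ran from 0.44 for Klf16 to 0.79 for Klf11. The part of cell composition in the KLF changes was not tested.

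The 4 libraries held 15883712 to 16374119 counts on genes, and 3 counts correspond to 0.183 to 0.189 CPM (counts scaled to library size), the level that a count of 0 allows by counting error alone. By a chi-square test of the counts of each gene with at least 20 counts, replicates differed past the 5% point of counting error in 12.4% of genes for DMSO and in 23.6% for risperidone. Among the 10 KLF genes this was so for Klf13 with DMSO and for Klf9 with risperidone.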

How the data were processed

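mRNA of 2 DMSO and 2 risperidone libraries was sequenced on MGISEQ-2000. The deposited table holds, per gene and library, estimated counts (expected counts) that the authors made without further normalization, FPKM values computed by the authors per length and depth, and TPM values that the authors deposited scaled to the same sum. The submitters' processing notes name Bowtie2, RSEM and DESeq2 and the build GRCm38.p6. Versions and annotation are not given in the sources used here. Columns of the authors' averages were not used.

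After rounding of the counts, the 10243 genes whose FPKM averaged 1 or more across libraries were fitted in R 4.3.3 with edgeR 4.0.16 (TMM, quasi-likelihood F-test, two-sided, Benjamini-Hochberg over all genes tested, threshold 0.05). The SE of a log2 fold change is its size over √F. TMM factors ran from 0.963 to 1.035. The fit was tested on simulated data in which, unlike here, few genes changed, so that test does not cover the scaling between libraries.

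Named genes are all members, the other KLF genes and up to 3 called genes with the largest change in each list. For 1 gene of the TGF-beta and SMAD list, the values are not reported here. Sp3, Ctbp1, Ctbp2, Wwp1, Srebf1, Cebpd, Cebpb, Pparg, Cebpa, Gm38457 and the markers named were added after their values were seen. Members and lists were chosen with earlier results of these data known. Alternatives were RLE factors, library size only, length offsets, filters, a replicate block, DESeq2 1.42.0, quantile normalization, and each library left out. Others used limma 3.58.1 on log2 FPKM with a pseudocount of 1 or 0.1, or on log2 TPM with a pseudocount of 1. Promoters and gene positions come from RefSeq tables of GRCm38.p6.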

Additional observations from a re-analysis of the deposited data

How the results depend on the processing

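Of 147 values of the KLF genes under alternatives, 142 kept their direction and their side of the threshold. The exceptions were Klf3 with quantile normalization (-0.17), Klf7 (0.25) and Klf16 (0.14) on log2(TPM + 1), Klf16 without control replicate 1, and Klf4, whose difference turned to -0.008 on log2(TPM + 1). With 1 library left out, Klf16 ranged from 0.30 to 0.48, 6 to 7 KLF genes were called higher and 2 lower, and 2666 to 3310 of all genes were higher and 2725 to 3350 lower. Where a call also needed a log2 change of 1 or more in size, 0 KLF genes were higher and 0 lower, against 267 and 401 of all genes. A mean of at least 5 FPKM removed Klf2, Klf4 and Klf7, which left 6 higher and 1 lower, beside 2669 and 2732 of 8052 genes. Quantile normalization gave 7 higher and 1 lower, beside 3114 and 3084 of 10243 genes. On log2(TPM + 1), 1536 of all genes were higher and 5292 lower. DESeq2 called 7 KLF genes higher and 2 lower, and 2639 and 2653 of all genes.

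The replicate numbers shared by the treatments were not taken as pairs, since deviations of same-numbered libraries correlated at -0.105 (Pearson, over 10243 genes). With the replicate block, 7 KLF genes were higher and 2 lower, and 3292 and 3321 of all genes. With the crossed pairing, chosen after seeing the data, the counts were 7 and 2, and 3474 and 3519. Klf5 was called with the replicate block (edgeR adjusted p = 0.0475), with RLE factors (edgeR adjusted p = 0.0495) and with quantile normalization (limma adjusted p = 0.00997). The 2 libraries of pooled cultures per treatment limit the precision of every value, and counts under 100, as for Klf4, Klf5, Klf15 and Klf2 with risperidone, limit it further. The causes of these changes were not tested.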
